A study of Mus musculus with 18 samples.

Results

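Hox genes were examined in whole lungs of mouse embryos at 14.5 days post coitus (dpc). Members were taken by name, as every gene called Hoxa, Hoxb, Hoxc or Hoxd with a number, which gave 39 of the 23420 genes listed in each table. The RNA-seq covered 18 lungs in 6 groups of 3, from lines with a deletion of Rptor, of Tfam or of Cox10 in the lung epithelium. Deficient lungs were Rptor f/f; ShhCre/+, Tfam f/f; ShhCre/+ or Cox10 f/f; ShhCre/+. Their controls were Rptor f/+; ShhCre/+, Tfam f/+; ShhCre/+ and Cox10 f/+; ShhCre/+, so that every control also carried Cre at one Shh allele and one floxed allele of the targeted gene. Cre from the Shh locus acts in the epithelium, whereas the RNA came from the whole organ. In such samples fewer cells of a type and less RNA per cell cannot be told apart.

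Hox genes encode homeodomain transcription factors and lie in clusters named a to d. Within a cluster the genes are numbered by paralogue position, and low-numbered (anterior) genes are activated earlier and further towards the head than high-numbered (posterior) genes. Genes of the same position in different clusters are paralogues that arose from a common ancestor gene and often act together. In the developing lung they are known mainly from the mesenchyme, and the paralogues of position 5, above all Hoxa5, are known for roles in lung and airway formation.

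Each line stood in a table of its own, scaled separately, so groups were compared only within a line. Normalised values, which are reads per gene after division by a factor for library size, summed to between 27727202 and 29611064 per lung. The targeted gene did not pass the test in any line. Rptor was 2298, 2224 and 2197 in controls and 2442, 1986 and 2020 in deficient lungs (log2 fold change −0.07, adjusted p = 0.571). Tfam was 1057, 1063 and 1185 against 940, 994 and 1107 (−0.12, adjusted p = 0.472), and Cox10 was 753, 812 and 824 against 809, 829 and 743 (−0.01, adjusted p = 0.979). Counts over a whole gene in whole lungs do not separate the floxed exons, so these values checked no label. Markers of lung epithelium (Nkx2-1, Epcam, Sftpc) and of lung mesenchyme (Tbx4, Foxf1, Tcf21) were measured in every line. Cox10-deficient replicate 3 stood apart, with the lowest value of its group for 19 of 22 Hox genes tested, and in the Rptor line control replicate 3 and deficient replicate 1 each had the highest value of their group for 15 of 22. In the Tfam line control replicate 2 had the highest for 14 of 23 and deficient replicate 1 for 13.

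The Hoxa cluster lies on chromosome 6, Hoxb on chromosome 11, Hoxc on chromosome 15 and Hoxd on chromosome 2 (GRCm38, GENCODE M21). RefSeq promoter windows (GRCm38.p6) were available for 22 of the 39 genes. The 250 bases before the start site are shown 5′ to 3′ for 4 of them. Hoxa5 was the highest per unit of summed exon length in control lungs. Hoxa2 and Hoxd1 had the smallest adjusted p-values in the Rptor line (limma), and Hoxa7 moved the other way. Hoxd1, with a control mean of 1.66, was tested there only because its values in deficient lungs were high enough, which favoured a small p-value. Capitals mark matches to TGATNNAT (the Hox–Pbx motif), TGACAG (the Meis and Pknox motif), AGGTCA (a retinoid receptor motif of 6 bases) or TATAAA (the TATA box), searched on both strands.
Hoxa2 (chr6:52164832-52165081, minus strand): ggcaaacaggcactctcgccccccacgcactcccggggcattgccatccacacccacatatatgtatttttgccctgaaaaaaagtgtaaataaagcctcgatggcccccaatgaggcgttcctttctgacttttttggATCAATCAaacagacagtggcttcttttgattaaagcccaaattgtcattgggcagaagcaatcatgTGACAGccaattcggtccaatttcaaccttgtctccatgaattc
Hoxa5 (chr6:52204588-52204837, minus strand): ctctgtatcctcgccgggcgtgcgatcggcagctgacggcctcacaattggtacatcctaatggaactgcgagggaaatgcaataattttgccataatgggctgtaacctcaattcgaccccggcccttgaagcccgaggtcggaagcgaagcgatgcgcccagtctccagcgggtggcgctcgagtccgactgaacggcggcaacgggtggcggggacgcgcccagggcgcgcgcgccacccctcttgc
Hoxa7 (chr6:52218574-52218823, minus strand): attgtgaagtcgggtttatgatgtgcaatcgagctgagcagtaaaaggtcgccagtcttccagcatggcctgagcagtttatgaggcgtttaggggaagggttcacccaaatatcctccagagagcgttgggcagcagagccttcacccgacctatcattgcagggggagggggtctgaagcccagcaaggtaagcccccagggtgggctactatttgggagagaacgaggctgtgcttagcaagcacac
Hoxd1 (chr2:74762730-74762979, plus strand): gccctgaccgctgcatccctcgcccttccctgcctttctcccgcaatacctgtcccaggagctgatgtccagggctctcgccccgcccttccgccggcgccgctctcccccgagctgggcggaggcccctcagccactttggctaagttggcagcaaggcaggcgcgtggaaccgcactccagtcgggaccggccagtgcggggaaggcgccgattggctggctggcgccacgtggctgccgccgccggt
Hoxa2 held 1 match to TGATNNAT and 1 to TGACAG, and the windows of Hoxa5, Hoxa7 and Hoxd1 held none of the 4 motifs. Over the 24 Hox windows TGATNNAT was found in 4, TGACAG in 2, AGGTCA in 6 and TATAAA in 4. Over all 32817 windows the shares were 7.69%, 15.9%, 14% and 12.4%. The median GC content was 58.6% in Hox windows and 52.4% in all. A match is a description of the letters, and a window without one says nothing about binding.

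The control lungs expressed anterior and central genes of the Hoxa and Hoxb clusters, while nearly all posterior genes were at or near 0. A gene was taken as present in a line when its mean normalised value over the 3 controls was at least 10. By this measure 19 of 39 genes were present in Rptor controls, 23 in Tfam controls and 21 in Cox10 controls, and 18 were present in every line. The 18 included Hoxa2 to Hoxa7 and Hoxb2 to Hoxb9. Another 5 genes (Hoxb1, Hoxc6, Hoxd3, Hoxd8 and Hoxd9) were present in 1 or 2 lines. The other 16 were present in none.

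Levels of different genes were compared per kilobase (kb) of exon. Hoxa5 was the highest in the controls of every line, at 1536 ± 86.4 per kb (SD, n = 3) for Rptor, 2963 ± 88.2 for Tfam and 2128 ± 25.1 for Cox10 controls. Its paralogue Hoxb5 came next in each line, at 1176 ± 43.9, 2428 ± 295 and 1694 ± 88.8 per kb. Hoxb3 was the third in each line, at 897 ± 8.94, 1188 ± 103 and 1126 ± 56.0 per kb. The control values of these 3 genes did not overlap within any line. With the length of the longest RefSeq transcript in place of all exons, Hoxb5 came before Hoxa5 in every line and Hoxb3 stayed at the third place. Below them in the Rptor line, Hoxb4, Hoxb6, Hoxb2, Hoxa4, Hoxa2 and Hoxa6 followed, each with values that overlapped those of its neighbour in that order. The order below Hoxb3 differed between lines. Among genes present, 10 of 18 neighbouring pairs overlapped in Rptor controls, 10 of 22 in Tfam controls and 9 of 20 in Cox10 controls.

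The third member of the paralogue group at position 5 was far lower. Hoxc5 had 13.7 ± 8.20 per kb in the Rptor controls, 25.1 ± 2.06 in the Tfam controls and 28.5 ± 5.72 in the Cox10 controls. Hoxb genes made up 56.1%, 52.9% and 56.0% of the summed Hox level per kb in the Rptor, Tfam and Cox10 controls, and Hoxa genes 42.9%, 45.9% and 42.6%. Hoxc genes made up 0.760%, 0.909% and 1.07%, and Hoxd genes 0.269%, 0.309% and 0.337%. By position, genes 4 and 5 held 55.8%, 65.9% and 55.3% of the summed level per kb. Positions 9 to 13 held 0.260%, 0.343% and 0.183%.

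**Figure D1:**
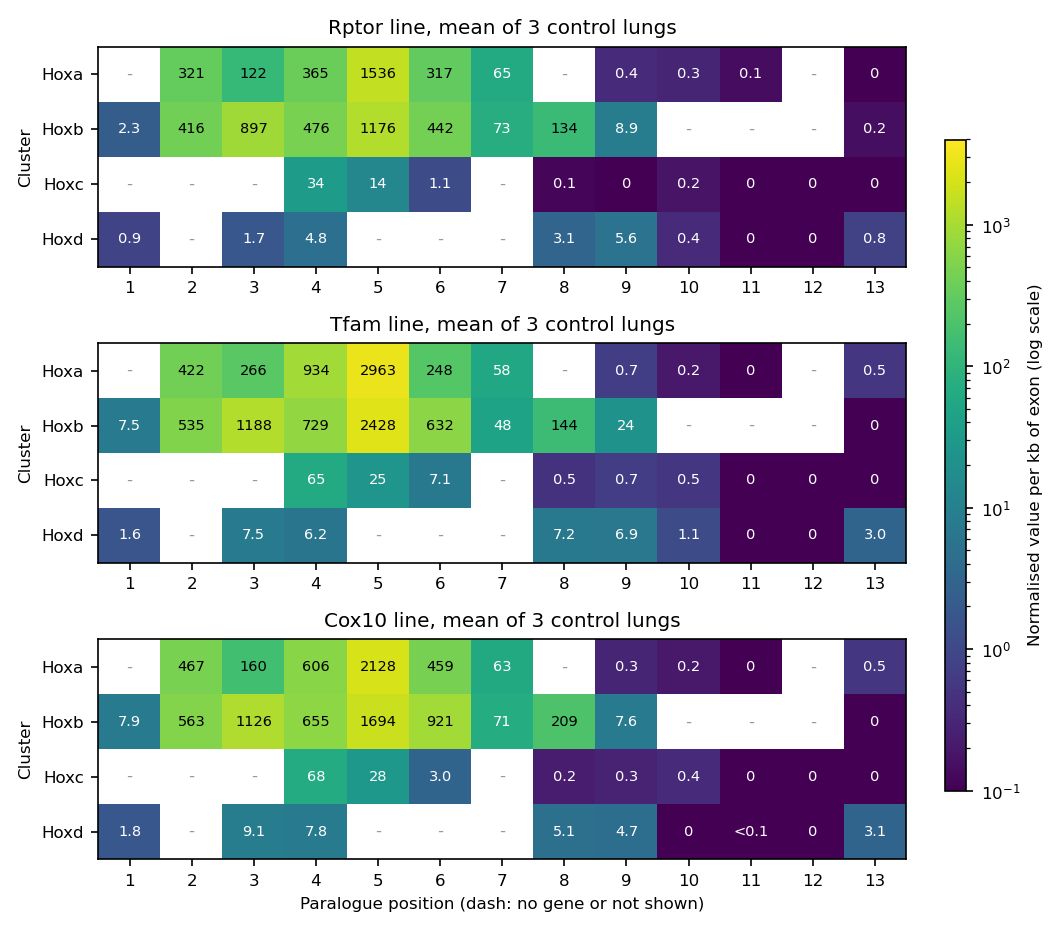
Mean control level of Hox genes by cluster (rows) and paralogue position (columns) in each line, as normalised value per kb of exon on a log colour scale (n = 3 lungs; values below 0.1 share the darkest colour; a dash marks a position with no gene or not shown). The highest levels lie in Hoxa and Hoxb, led by Hoxa5 at 1536 to 2963 per kb, and the right side of the grid is near 0.

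Of 16 genes at positions 9 to 13, Hoxb9 was present in every line and Hoxd9 in the Rptor and Tfam lines. Posterior Hox genes pattern the caudal trunk, limbs and urogenital tract. The 15 genes that were tested in no line were 14 of these posterior genes and Hoxc8, and their highest value in any lung was 11.9 (Hoxa9). Hoxc11, Hoxc12 and Hoxd12 were at 0 in all 18 lungs. A count of 0 in a library allows up to 3 reads. Hoxa13 and Hoxb13 did not go above 3.95 and 1.01 in any lung.

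In Rptor-deficient lungs 22 Hox genes were tested, that is, had a mean value of at least 10 over the 6 lungs of the line. Of these, 9 rose and 1 fell (limma, adjusted p below 0.05), against 16.5% of all genes tested that rose and 18.2% that fell. The genes that rose were Hoxa2, Hoxa3, Hoxa4, Hoxa5, Hoxb5, Hoxb9, Hoxd1, Hoxd3 and Hoxd8, and Hoxa7 fell. Hoxd1, Hoxd3 and Hoxd8 had control means below 10 and passed the filter through the deficient lungs, so that they had to differ. Of the other 19 genes, 6 rose and 1 fell. The 3 deficient values lay above all 3 control values for 11 of 22 Hox genes (24.3% of all genes) and below them for 1 (26.0%). The replicate numbers were taken to pair lungs in this line from correlations in these data, while no label states a pairing. With the number as a block 12 Hox genes rose and 1 fell (18.5% and 19.9% of all genes). Without control replicate 1, 5 rose and 1 fell, and the calls over all genes went from 2467 higher and 2714 lower to 1774 and 1985. The Hox genes together summed to normalised values of 16298, 16348 and 17264 in controls and 24721, 19256 and 19817 in deficient lungs.

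Hoxa2 to Hoxa5, which are neighbours on chromosome 6, rose together. Hoxa2 (chr6:52162417-52164831), known for patterning of the hindbrain and branchial arches, had values of 553, 546 and 607 in controls and 951, 1014 and 877 in deficient lungs. Its log2 fold change was 0.73 (SE 0.08, adjusted p = 0.000501). Hoxa3 (chr6:52169062-52213336), which is needed for the thymus and parathyroid, was 710, 687 and 809 against 1399, 1023 and 1106 (0.67, SE 0.12, adjusted p = 0.00392). For both genes every deficient lung lay above every control. Hoxa4 (chr6:52189671-52191753), a patterning gene of cervical vertebrae, was 498, 552 and 696 against 777, 861 and 1031 (0.62, SE 0.14, adjusted p = 0.0114). Hoxa5 (chr6:52201754-52204587), required for airway and lung formation, was 2724, 2875 and 3048 against 4356, 3775 and 4523 (0.55, SE 0.08, adjusted p = 0.00136). These groups did not overlap either. Of the exon bases of Hoxa2 and Hoxa3, 15% and 8.01% are shared with Gm28308 on the same strand, so that such reads are of uncertain origin. Of those of Hoxa3, 25.4% are shared with genes on the opposite strand (Hoxaas2 and Hoxaas3 among them), and of Hoxa4 16.0%; strandedness of the counting is not given in the sources used here, so such reads cannot be told apart. Hoxa5 shares no exon base with another gene.

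Hoxa7 fell, while Hoxa6 next to it did not pass the test. Hoxa7 (chr6:52214491-52221854), a central gene known from thoracic patterning, was 185, 177 and 200 in controls and 116, 113 and 92.9 in deficient lungs (log2 fold change −0.80, SE 0.14, adjusted p = 0.00315). Every deficient lung lay below every control. Hoxa6, between Hoxa5 and Hoxa7, was 262, 272 and 297 against 342, 266 and 232, with groups that overlapped. Hoxaas3 on the opposite strand shares 20.4% of the exon bases of Hoxa7. Mira, a non-coding gene that RefSeq places inside the GENCODE span of Hoxa7 and that was picked after its values were seen, was 134, 129 and 147 against 63.2, 106 and 109 (−0.59, SE 0.22, adjusted p = 0.0632).

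In the Hoxb cluster only the 2 ends of the stretch from Hoxb5 to Hoxb9 passed the test. Hoxb5 (chr11:96303336-96306121), known from lung branching, was 3139, 3311 and 3376 in controls and 4865, 3790 and 3720 in deficient lungs (log2 fold change 0.32, SE 0.10, adjusted p = 0.0347). Hoxb9 (chr11:96271457-96276595), a patterning gene of the thorax, was 11.0, 28.0 and 29.8 against 32.6, 103 and 65.2 (1.48, SE 0.48, adjusted p = 0.0427). Every deficient value of these genes was above every control value, but for Hoxb5 replicate 1 stood far above the others. Without it the log2 fold change of Hoxb5 was 0.20. The call of Hoxb5 was lost without any of the 3 controls (highest adjusted p = 0.104), and that of Hoxb9 without any control or without deficient replicate 2 or 3 (highest adjusted p = 0.135).

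The highly expressed Hoxb2, Hoxb3 and Hoxb4 did not pass. Hoxb2 was 1375, 1453 and 1522 in controls and 1899, 1352 and 1552 in deficient lungs (0.13, SE 0.11, adjusted p = 0.409). Hoxb3 was 3849, 3773 and 3814 against 5651, 3992 and 3794 (0.21, SE 0.13, adjusted p = 0.249). Hoxb4 was 1217, 1217 and 1231 against 1622, 1269 and 1108 (0.11, SE 0.12, adjusted p = 0.530). For each of them deficient replicate 1 was the highest lung and the groups overlapped. Of the exon bases of Hoxb3 and Hoxb2, 52.9% and 27.3% are shared with Hoxb3os on the opposite strand. The 3 other Hoxb genes tested (Hoxb6, Hoxb7 and Hoxb8) also overlapped between groups.

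The Hoxd genes were scarce in Rptor controls, and Hoxd1, Hoxd3 and Hoxd8, which passed the filter through the deficient lungs, rose. Hoxd1 (chr2:74762980-74765142), the most anterior gene of its cluster, had 1, 2 and 2 reads in controls and 37, 26 and 24 in deficient lungs. The ratio of the summed reads was 17.4, with a 95% exact interval of 7.19 to 55.1 that covers counting error only (fitted log2 fold change 3.49, SE 0.38, adjusted p = 0.000419). Every deficient lung lay far above every control. Hoxd3 (chr2:74711927-74748442) was 7.98, 8.99 and 4.97 against 18.4, 17.8 and 14.8 (1.14, SE 0.33, adjusted p = 0.0291), and Hoxd8 (chr2:74704615-74707933) was 5.98, 8.99 and 10.9 against 16.3, 36.6 and 15.8 (1.24, SE 0.41, adjusted p = 0.0441). Groups did not overlap, but the call of Hoxd3 was lost without any lung other than control replicate 2 (highest adjusted p = 0.0876), and that of Hoxd8 without any control or without deficient replicate 2 (highest adjusted p = 0.145). Hoxd3 shares 62.3% of its exon bases with Hoxd4 and Gm28230 on the same strand, which leaves the origin of its reads uncertain. Hoxd4 was 13, 17.0 and 12.9 against 21.4, 31.7 and 16.8, with groups that overlapped.

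Hoxd9, Hoxc4 and Hoxc5 were near the threshold and passed it with the replicate block. Hoxd9 was 8.98, 17.0 and 9.95 in controls and 17.3, 31.7 and 26.7 in deficient lungs (log2 fold change 1.03, SE 0.35, adjusted p = 0.0513, with the block 0.0287). Hoxc4 was 91.7, 75.9 and 94.5 against 234, 104 and 129 (0.75, SE 0.28, adjusted p = 0.0659, with the block 0.0251). Hoxc5 was 41.9, 17.0 and 67.6 against 92.8, 65.4 and 83.0 (1.10, SE 0.43, adjusted p = 0.0792, with the block 0.0237). Hoxd9 and Hoxc4 did not overlap between groups, and Hoxc5 overlapped through control replicate 3. For Hoxd9, deficient replicate 1 (17.3) and control replicate 2 (17.0) lay less than 1 read apart, so its groups were barely separate. Leaving out 1 lung moved the log2 fold change of Hoxc4 to between 0.41 (without deficient replicate 1) and 0.99 (without deficient replicate 2, adjusted p = 0.0283), and that of Hoxc5 to between 0.57 (without control replicate 2) and 1.54 (without control replicate 3, adjusted p = 0.0236). Hoxd9 passed without control replicate 2 (adjusted p = 0.0415) or deficient replicate 1 (adjusted p = 0.0277). Over all 22 genes the median log2 fold change was 0.58, and over the 19 with a control mean of at least 10 it was 0.45, against 0.01 over all genes tested. Over those 19 genes the median was 0.55 for 7 Hoxa, 0.17 for 8 Hoxb, 0.92 for 2 Hoxc and 0.83 for 2 Hoxd genes. By position it was 0.45 for 5 genes at positions 1 to 3, 0.62 for 7 at 4 and 5, −0.0014 for 5 at 6 to 8, and 1.25 for 2 (Hoxb9 and Hoxd9) at 9 to 13.

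**Figure D2:**
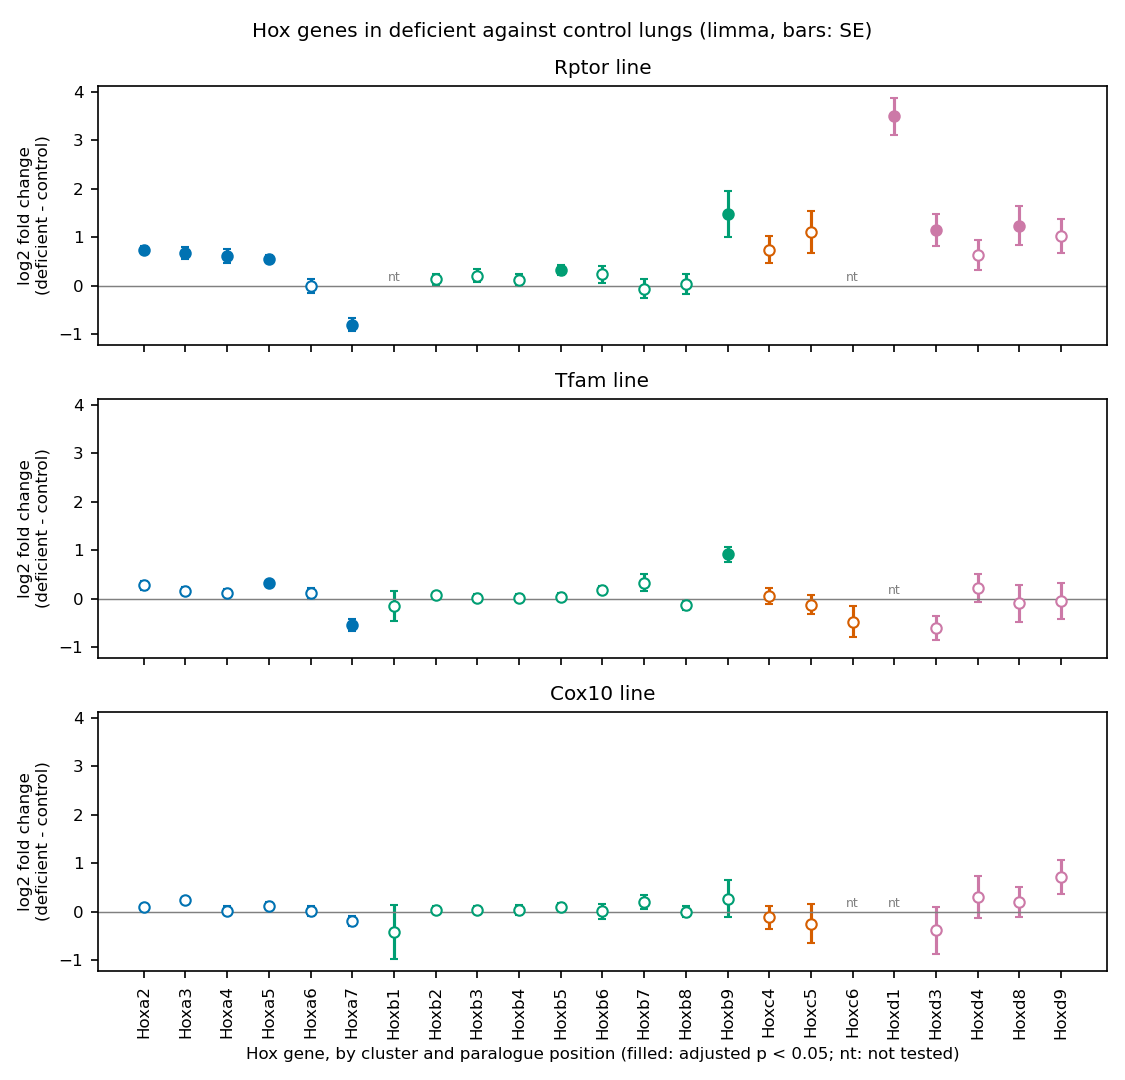
Log2 fold change (deficient minus control, on the log2(value + 1) scale) of tested Hox genes by cluster and position in the 3 lines, with SE bars from limma and filled points at an adjusted p below 0.05. In the Rptor line Hoxa2 to Hoxa5 lie at 0.55 to 0.73, Hoxa7 at −0.80 and Hoxd1 at 3.49, and in the Cox10 line no point is filled.

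In Tfam-deficient lungs Hoxa5 and Hoxb9 rose and Hoxa7 fell, out of 23 Hox genes tested, all of which had control means of at least 10. Over all genes tested 2.04% rose and 2.63% fell. Hoxa5 was 5393, 5570 and 5724 in controls and 7030, 6930 and 6878 in deficient lungs (log2 fold change 0.32, SE 0.05, adjusted p = 0.00536). Hoxb9 was 54.9, 59.6 and 67.0 against 102, 115 and 129 (0.92, SE 0.15, adjusted p = 0.00581). Hoxa7 was 168, 187 and 149 against 107, 124 and 113 (−0.54, SE 0.13, adjusted p = 0.0385). None of these groups overlapped. The call of Hoxa5 held without any single lung of the line, at adjusted p-values up to 0.0374, and that of Hoxb9 up to 0.0408. The call of Hoxa7 was lost without any lung other than control replicate 3 (highest adjusted p = 0.130), and that of Hoxb9 in a fit of all 18 lungs (adjusted p = 0.297).

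The anterior Hoxa genes had smaller differences in the Tfam line. Hoxa2 was 776, 819 and 652 in controls and 894, 988 and 836 in deficient lungs (0.28, SE 0.10, adjusted p = 0.154). Its groups did not overlap. Hoxa3 was 1694, 1723 and 1378 against 1829, 1786 and 1708 (0.16, SE 0.08, adjusted p = 0.375), and Hoxa4 was 1465, 1514 and 1486 against 1744, 1719 and 1430 (0.13, SE 0.08, adjusted p = 0.446). Hoxa3 and Hoxa4 overlapped between groups.

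Hoxb5, the paralogue of Hoxa5, did not pass in the Tfam line. It was 6861, 7532 and 5898 in controls and 7105, 7259 and 6404 in deficient lungs (0.04, SE 0.09, adjusted p = 0.865). Hoxb2 was 1886, 1887 and 1822 against 2011, 1939 and 1983 (0.08, SE 0.05, adjusted p = 0.464), with groups apart. Hoxb3 (5261, 5345 and 4551 against 5166, 5336 and 4812) and Hoxb4 (1974, 1927 and 1712 against 1883, 1932 and 1875) overlapped, with log2 fold changes of 0.02 (SE 0.07, adjusted p = 0.934) and 0.02 (SE 0.07, adjusted p = 0.902). Hoxc5 was 81.3, 80.8 and 70.0 against 95.3, 59.6 and 62.6 (−0.12, SE 0.19, adjusted p = 0.805), and its groups also overlapped.

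No Hoxd gene passed the test in the Tfam line. Hoxd3 was 26.4, 35.4 and 32.0 in controls and 20.8, 15.9 and 24.4 in deficient lungs (−0.60, SE 0.25, adjusted p = 0.240), with every deficient lung below every control. Hoxd8 was 10.2, 32.3 and 17.0 against 19.8, 13.9 and 16.6 (−0.10, SE 0.38, adjusted p = 0.929) and overlapped. Hoxd1 was not tested, since it stayed below a mean of 10, with values of 3.05, 3.03 and 3 in controls and 2.98, 7.94 and 2.93 in deficient lungs. Deficient values lay above all controls for 6 of 23 Hox genes (11.0% of all genes) and below all for 2 (11.8%). The median log2 fold change of the 23 genes was 0.06, against 0.00 over all genes.

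In Cox10-deficient lungs none of 22 Hox genes passed the adjusted threshold in limma, and 1 of 22 (Hoxa3) had an unadjusted p below 0.05. In this line 0.141% of all genes tested rose and 0.335% fell. Hoxa3 was 954, 1005 and 927 in controls and 1245, 1099 and 1058 in deficient lungs (log2 fold change 0.23, SE 0.07, adjusted p = 0.287). Hoxa2 was 837, 816 and 836 against 903, 901 and 876 (0.11, SE 0.05, adjusted p = 0.445). Hoxa7 was 187, 169 and 188 against 160, 161 and 156 (−0.19, SE 0.11, adjusted p = 0.482). In each of these 3 genes the groups lay apart.

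Hoxa5, Hoxb5, Hoxb9 and Hoxc5 overlapped between the Cox10 groups. Hoxa5 was 3948, 3993 and 4042 in controls and 4496, 4684 and 3955 in deficient lungs (0.13, SE 0.07, adjusted p = 0.445). Hoxb5 was 4455, 4946 and 4756 against 5368, 5431 and 4353 (0.09, SE 0.09, adjusted p = 0.665). In both genes replicates 1 and 2 lay above and replicate 3 within or below the controls. Hoxb9 was 18.9, 25.2 and 15 against 15, 39.2 and 21.7 (0.27, SE 0.39, adjusted p = 0.777), and Hoxc5 was 99.3, 67.6 and 96.9 against 124, 82.5 and 37.6 (−0.25, SE 0.40, adjusted p = 0.804). In these last genes values of both groups lay among each other.

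Hoxb2, Hoxb3 and Hoxb4, high in every line, were also close to their controls in the Cox10 line. Hoxb2 was 1868, 1999 and 2023 in controls and 2092, 2174 and 1798 in deficient lungs (0.04, SE 0.08, adjusted p = 0.845). Hoxb3 was 4582, 5049 and 4734 against 5118, 5396 and 4358 (0.05, SE 0.08, adjusted p = 0.828), and Hoxb4 was 1684, 1738 and 1617 against 1829, 1920 and 1456 (0.04, SE 0.10, adjusted p = 0.887). In all 3 genes deficient replicate 3 was the lowest of the 6 lungs. Hoxa4 was 1020, 885 and 993 against 1116, 964 and 878 (0.03, SE 0.10, adjusted p = 0.926) and overlapped.

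Hoxd genes were low in the Cox10 line. Hoxd3 was 51.6, 28.2 and 34.0 against 56.9, 27.2 and 13.8 (−0.38, SE 0.48, adjusted p = 0.742), and Hoxd8 was 17.9, 10.1 and 14 against 17.0, 14.1 and 16.8 (0.21, SE 0.31, adjusted p = 0.787). Hoxd1 was not tested, with values of 4.96, 4.03 and 0.999 in controls and 3.99, 6.03 and 3.95 in deficient lungs. Hoxd9, which passed the filter through the deficient lungs, was 12.9, 6.05 and 11.0 against 17.0, 15.1 and 16.8 (0.71, SE 0.35, adjusted p = 0.432), with groups apart.

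Deficient values lay above all controls for 3 of 22 genes (10.6% of all genes) and below them for 1 (10.7%) in the Cox10 line. The median log2 fold change was 0.04, and 0.16 without deficient replicate 3. No Hox gene passed without that lung either. The summed value of blood cell markers reached 17382 in the Cox10-deficient group, against 5117 to 5708 in controls, and that of endothelium 34990 against 21440 to 22044; their part in the Hox values was not tested.

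**Figure D3:**
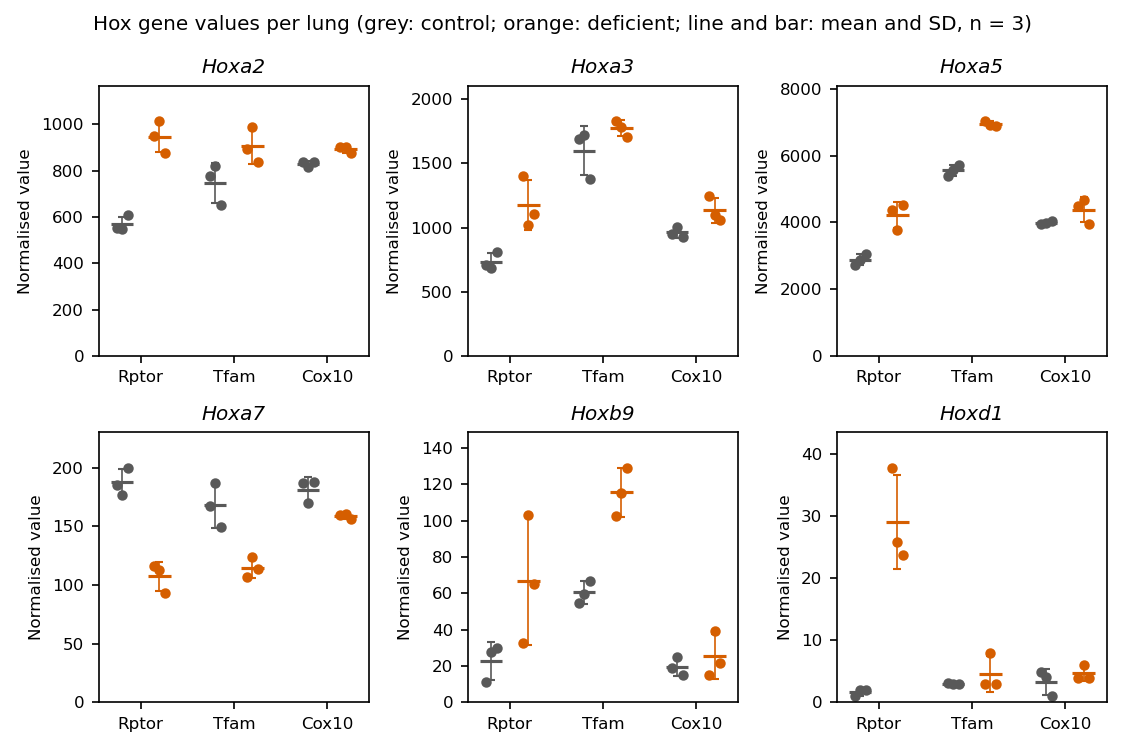
Normalised values of 6 Hox genes in each of the 18 lungs, by line, with controls in grey, deficient lungs in orange, and the mean and SD of each group of 3. Hoxa5 rises in the Rptor and Tfam lines, Hoxa7 falls in both, and Hoxd1 goes from 1 to 2 reads to 24 to 37 in the Rptor line while it stays low in the other lines.

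A single fit of the 18 lungs asked for 21 Hox genes whether the effect of the deletion differed from line to line. The Rptor effect differed from the Tfam effect for 3 of them (11.2% of all genes) and from the Cox10 effect for 4 (7.55%). The Tfam and Cox10 effects differed for none at the adjusted threshold in limma (0.0551% of all genes), and 1, Hoxa7, had an unadjusted p below 0.05. The rise of Hoxa2 with Rptor deletion exceeded that with Tfam deletion (difference of log2 fold changes 0.46, SE 0.12, adjusted p = 0.0208) and that with Cox10 deletion (0.63, SE 0.12, adjusted p = 0.00338). Against the Tfam line, Hoxa3 (0.51, SE 0.15, adjusted p = 0.0375) and Hoxd3 (1.75, SE 0.53, adjusted p = 0.0436) also differed. Hoxd3 had entered this fit in the Rptor line through the deficient lungs, as given above, so that its difference was favoured by the filter. Against the Cox10 line, Hoxa4 (0.59, SE 0.17, adjusted p = 0.0468), Hoxa5 (0.42, SE 0.10, adjusted p = 0.0124) and Hoxa7 (−0.62, SE 0.17, adjusted p = 0.0302) differed. The difference of the Rptor and Tfam effects on Hoxa5 was 0.23 (SE 0.10, adjusted p = 0.137), and on Hoxa7 −0.26 (SE 0.17, adjusted p = 0.317).

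With the replicate block, 4 and 6 Hox genes differed between the Rptor effect and the Tfam and Cox10 effects (15.9% and 10% of all genes). Hoxa4 was then added against the Tfam line (adjusted p = 0.0118), and Hoxb9 and Hoxd3 against the Cox10 line (0.0338 and 0.0424). The differences of Hoxa2 and Hoxa5 against the Cox10 line kept their calls without any single lung. The difference of Hoxa2 against the Tfam line was lost without Rptor control replicate 2, Tfam control replicate 1 or 2, or Tfam-deficient replicate 3 (highest adjusted p = 0.0661). That of Hoxa3 was lost without any of 7 of the 18 lungs (Rptor controls 1 and 2, Rptor-deficient 1, Tfam controls 1 and 2, and Tfam-deficient 2 and 3), and that of Hoxa7 without any of 8 (Rptor controls 1 and 3, Rptor-deficient 3, each Cox10 control, and Cox10-deficient 1 and 2). Those of Hoxa4 (against the Cox10 line) and Hoxd3 (against the Tfam line) were each lost without any of 13, with adjusted p-values up to 0.117 and 0.106, and also with no filter on low values (0.0537 and 0.0534). Hoxa4 kept its call without Rptor control 3, Rptor-deficient 1, Tfam-deficient 3, Cox10 control 2 or Cox10-deficient 1, and Hoxd3 without any Cox10 lung other than control 3.

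Hox proteins bind DNA together with TALE homeodomain proteins of the Pbx, Meis and Pknox families. Of 9 such cofactors, 4 rose in the Rptor line and none fell, against 16.5% and 18.2% of all genes tested. Meis3 went from 375, 374 and 384 to 604, 556 and 562 (log2 fold change 0.60, adjusted p = 0.000981), and Meis1 from 4216, 4342 and 4615 to 7681, 6244 and 6110 (0.60, adjusted p = 0.00158). Pknox2 rose by 0.36 (adjusted p = 0.0240). The 5 that did not pass had log2 fold changes from −0.79 (Pbx4) to 0.29 (Meis2), and the list's median was 0.29. With the replicate block Meis2 passed too (adjusted p = 0.0357), which made 5 of 9. Without the block no member of this list passed in the Tfam or Cox10 line. With it Pbx3 fell in the Tfam line (−0.23, adjusted p = 0.0448), where the numbers were not taken to pair lungs.

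Among 19 tested regulators of the Hox clusters, 2 rose and 5 fell in the Rptor line, numbers near the background of 16.5% and 18.2% of all genes. Aldh1a2, which makes retinoic acid, was 2139, 1769 and 2121 in controls and 3704, 3284 and 3268 in deficient lungs (0.77, adjusted p = 0.000504), and the retinoic acid receptor gene Rara also rose (0.53, adjusted p = 0.00926). Cbx2, a Polycomb subunit that binds methylated histone, was 3325, 3158 and 3145 against 2577, 2575 and 2417 (−0.35, adjusted p = 0.00206). Suz12 (−0.26), Eed (−0.29) and Ezh2 (−0.19), which encode core subunits of the Polycomb complex that methylates histone H3, fell with adjusted p-values of 0.00952, 0.0203 and 0.0280. Gdf11, a signal that sets posterior Hox domains, fell by 0.41 (adjusted p = 0.00602). With the replicate block 4 rose, Kdm6b (0.43, adjusted p = 0.0337) and Cyp26b1 (1.02, adjusted p = 0.0147) being added, and 5 fell. For these 2 added genes deficient replicate 1 stood far above the other lungs. Kdm6b was 2662, 2395 and 2510 in controls and 4881, 2879 and 2765 in deficient lungs. Cyp26b1 was 819, 682 and 610 against 3073, 889 and 1051. Without the block 12 of 19 did not pass, and none passed in the Tfam and Cox10 lines.

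The non-coding RNA gene Gm53, which lies between Hoxb13 and Hoxb9, was higher in 2 lines. It was 33.9, 49.0 and 50.7 in Rptor controls and 59.1, 91.1 and 115 in deficient lungs (0.94, adjusted p = 0.0286). With Cox10 deletion it was 30.8, 33.3 and 28.0 against 64.9, 72.4 and 68.2 (1.14, adjusted p = 0.0498), which lost its call with the replicate block (adjusted p = 0.0839). With Tfam deletion it went the same way, at 32.5, 48.5 and 51.0 against 66.5, 72.5 and 78.2 without passing (0.73, adjusted p = 0.0733). In all 3 lines every deficient lung lay above every control. Of 15 non-coding genes of the clusters that were listed, 5 were in the tables and 2 were tested, the other being Hoxaas3 (2700086A05Rik in the tables), which did not pass in any line. Of 8 genes tested that flank the clusters, Calcoco1 (0.74, adjusted p = 0.000254) and Skap2 (0.33, adjusted p = 0.00541) rose and Cbx5 (−0.22, adjusted p = 0.0440) fell in the Rptor line, against the same shares of all genes, and none passed in the others.

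Markers of cell types moved in the same lungs. The counts in the Rptor line stand against 16.5% of all genes that rose and 18.2% that fell. In that line 7 of 12 mesenchyme markers rose and none fell (median log2 fold change 0.53). The summed value of the list was 226617 to 256194 in controls and 423517 to 454532 in deficient lungs. Most of this sum came from the collagen genes Col1a1, Col1a2 and Col3a1. Their means were 49722, 48236 and 76721 in controls and 109355, 101629 and 147576 in deficient lungs. For epithelium, 9 of 10 markers fell (median −1.13), from a sum of 38727 to 44966 to one of 14518 to 21235. Of 6 smooth muscle markers 1 rose and 4 fell, of 6 endothelium markers 5 rose, of 5 mesothelium markers 3 rose, and of 4 cartilage markers tested 3 fell. Among mesenchyme transcription factors Tcf21 rose by 0.77, while Tbx4 (−0.04), Tbx5 (0.02), Foxf1 (0.12) and Twist1 (1.04) did not pass. The signal gene Wnt2 did not pass either (−0.18). With the replicate block 8 mesenchyme markers rose, Twist1 included (adjusted p = 0.0257), and 1, Wnt2, fell (adjusted p = 0.0351), while the mesothelium marker Msln (−0.93) also fell (adjusted p = 0.0312). In the Tfam line, where 2.04% of all genes rose and 2.63% fell, no mesenchyme marker passed (median 0.09). There 4 of 10 epithelium, 4 of 6 smooth muscle and 1 of 4 cartilage markers tested fell, and 6 epithelium markers with the replicate block. In the Cox10 line no mesenchyme marker passed either (median 0.16), and Grhl2 alone of the epithelium markers fell, a call lost with the replicate block. None of these markers was at 0 in all lungs. Their part in the Hox results was not tested.

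Markers of other tissues that could have been dissected with the lung were also read. Over all genes tested 16.5% rose and 18.2% fell with Rptor deletion, against 2.04% and 2.63% with Tfam deletion. Of 6 neuron and glia markers tested, Ret alone passed, falling with either deletion. Of 3 blood cell markers tested, Ptprc and Csf1r rose with Rptor deletion, while Beta-s did not pass (log2 fold change 0.07). Of 5 heart muscle markers tested, Myh7 alone rose with Rptor deletion, and Nppa alone with Tfam deletion. With Rptor deletion Myh6 (0.40), Tnnt2 (0.17) and Myl7 (0.04) did not pass. Nppa fell there only with the replicate block (−1.93, adjusted p = 0.0467). The heart muscle list summed to 487 to 2231 in Rptor controls and 794 to 1820 in Rptor-deficient lungs, to 2765 to 7308 and 4874 to 14591 in the Tfam line, and to 429 to 4508 and 482 to 4318 in the Cox10 line. Its part in the Hox values was not tested. In no line did a marker of skeletal muscle and body wall or of stomach, oesophagus and gut pass. Over all 18 lungs the gut list summed to between 21.7 and 175 and the skeletal muscle list to between 25.7 and 473.

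**Figure D4:**
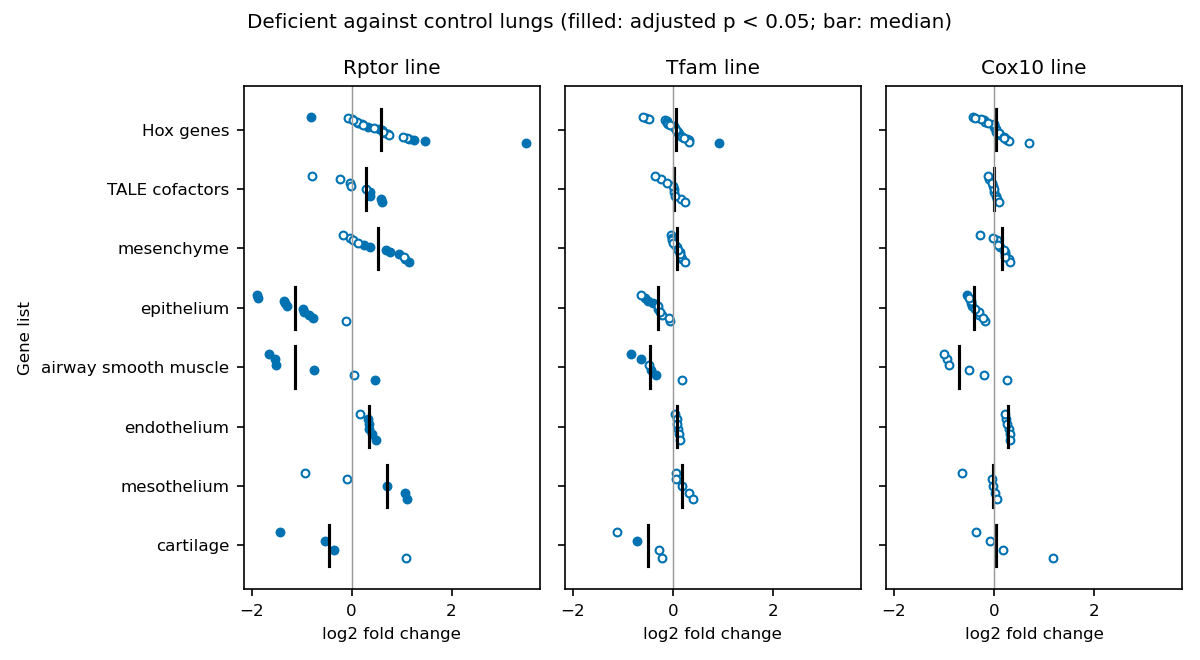
Log2 fold changes of the tested Hox genes, the TALE cofactors and markers of cell types in each line, on a shared axis (points: genes, filled at an adjusted p below 0.05; bars: medians). In the Rptor line the Hox median is 0.58, or 0.45 without Hoxd1, Hoxd3 and Hoxd8, the mesenchyme median is 0.53 and the epithelium median −1.13, and in the other lines the Hox medians are 0.06 and 0.04.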

How the data were processed

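Whole lungs of mouse embryos were profiled by RNA-seq, with 3 control and 3 deficient lungs in each of 3 lines. Per the labels, RNA was prepared with a column kit and an Illumina protocol; the study's methods name TRIzol, the column kit and a BGISEQ sequencer. The submitters' processing notes name Trim Galore, HISAT2, featureCounts, DESeq2 and the build mm10, without versions or roles. The annotation and the strandedness of counting are not given in the sources used here. Per the file headers and values, the authors deposited a normalised signal per gene, the read count divided by a size factor, and 100% of values were whole multiples of a step of 0.978 to 1.02 (tolerance 0.001), so that a value is close to a number of reads. The tables also hold the authors' own fold changes and p-values, which were not used. Lungs of different litters were combined per the methods, and both sexes may occur; p-values measure the spread between these lungs.

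Values were analysed as log2(value + 1), which understates changes of low genes. In each line, genes with a mean of at least 10 over the 6 lungs were tested in limma 3.58.1 (R 4.3.3; lmFit, eBayes with trend), two-sided, with Benjamini-Hochberg adjustment over all genes tested (14922, 14999 and 14904). Differences between lines were tested in a fit of 18 lungs and 6 groups on 14523 genes. The 4 rows whose symbols had become dates and were repeated were left out. The scripts were tested on simulated data. Exon lengths and overlaps came from GENCODE M21. Deviations from the group means of lungs with the same replicate number correlated at 0.196, 0.299 and 0.252 over genes in the Rptor line. The numbers, which come from the sample titles, were therefore taken to pair its lungs. In the other lines they were not, since some correlations lay below 0.1. Lungs of unlike numbers reached 0.375 in the Tfam line, so correlations of this size do not establish a pairing.

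Named with all values were Hox genes past the threshold in any line, the 5 with the highest mean control value, and the position 5 paralogues; Hoxc4 and Hoxd9 were added because they passed with the block. From each companion list up to 4 members past the threshold were named by the rule (some items that it takes are not reported here, though counts and medians include them), and the further regulators were added after their values were seen. The members, gene lists and tests were chosen with earlier results of these data known. Alternatives were other pseudocounts (0.1 and 5), no filter, a value of 10 in at least 3 lungs, equal totals, TMM scaling (trimming 30% on the M axis, 5% on the A axis), the replicate block, a fit of all 18 lungs, and leaving out each lung; count models were planned but not run.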

Additional observations from a re-analysis of the deposited data

Results flagged for a closer look

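The effect on 6 Hox genes differed between lines by a test of the difference itself in limma, over all 18 lungs. Over all genes, 11.2% differed between the Rptor and Tfam effects and 7.55% between the Rptor and Cox10 effects. Between the Rptor and the Tfam line, the log2 fold changes differed by 0.46 for Hoxa2 (0.73 against 0.28), by 0.51 for Hoxa3 (0.67 against 0.16) and by 1.75 for Hoxd3 (1.14 against −0.60). Hoxd3 had a Rptor control mean below 10 and passed the filter in that line through the deficient lungs, which favoured a difference. Between the Rptor and the Cox10 line they differed by 0.63 for Hoxa2 (0.73 against 0.11), by 0.59 for Hoxa4 (0.62 against 0.03), by 0.42 for Hoxa5 (0.55 against 0.13) and by −0.62 for Hoxa7 (−0.80 against −0.19). The adjusted p-values of these 7 differences ranged from 0.00338 (Hoxa2, Rptor minus Cox10) to 0.0468 (Hoxa4, Rptor minus Cox10). When single lungs were left out, the differences of Hoxa2 and Hoxa5 against the Cox10 line kept their calls. The other 5 were lost without any of 4 (Hoxa2 against Tfam), 7 (Hoxa3), 8 (Hoxa7) or 13 (Hoxa4 and Hoxd3) of the 18 lungs.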

How the results depend on the processing

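The value of every Hox gene rested on 3 lungs a group, and low genes such as Hoxd1, Hoxd3 and Hoxd8 on few reads. No other setting than leaving out a lung turned the sign of a named gene, and equal totals or trimmed means shifted the median of all genes by at most 0.013. Count models on whole reads, planned as alternatives, were not run, because the step of 0.978 to 1.02 lies too close to 1 for the check of recovered reads that was applied, so every call rests on limma. The reads and interval given for Hoxd1 were taken from its values divided by that step, and rest on the step being right. In the Rptor line the replicate block gave 12 Hox genes higher and 1 lower in place of 9 and 1. In the lines where the numbers were not taken to pair lungs, the block gave 3 higher and 1 lower for Tfam and 0 for Cox10. It added Hoxa2 in the Tfam line (adjusted p = 0.0463) and changed the Cox10 counts of all genes to 3 higher and 28 lower. Without a filter no Hox gene was lower in the Tfam line (0 in place of 1), where Hoxa7 had an adjusted p of 0.0668, and Hoxb9 and Hoxd8 lost their calls in the Rptor line (0.0581 and 0.0532). Among the differences between lines, that of Hoxd3 (Rptor minus Tfam) lost its call with a pseudocount of 5 and without a filter (adjusted p up to 0.0592), and that of Hoxa4 (Rptor minus Cox10) without a filter (0.0537). With all 18 lungs in one fit, 1 Hox gene was higher in the Tfam line, and all genes counted 165 higher and 243 lower there and 117 and 199 in the Cox10 line. The causes were not tested.

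Leaving out each lung in turn gave 5 to 9 Hox genes higher in the Rptor line, 0 to 1 lower in the Tfam line, a Rptor median change of 0.47 to 0.60, and 0 to 3 and 2 to 4 Hox genes whose Rptor effect differed from the Tfam and the Cox10 effect. The counts of all genes ranged from 1677 to 2518 higher and 1911 to 2810 lower with Rptor deletion, from 149 to 515 higher and 206 to 604 lower with Tfam deletion and from 0 to 71 higher and 3 to 179 lower with Cox10 deletion. The sign of differences that had not passed turned for some genes. In the Rptor line these ranged from −5.8e-05 to 0.245 for Hoxb2 and −0.0434 to 0.232 for Hoxb4. In the Tfam line they ranged from −0.0562 to 0.0597 for Hoxb3, −0.0406 to 0.0619 for Hoxb4, −0.0565 to 0.12 for Hoxb5, −0.071 to 0.225 for Hoxc4, −0.334 to 0.00049 for Hoxc5, −0.475 to 0.314 for Hoxd8 and −0.429 to 0.26 for Hoxd9. In the Cox10 line they ranged from −0.0676 to 0.105 for Hoxa4, −0.0168 to 0.12 for Hoxb2, −0.0187 to 0.135 for Hoxb3, −0.0409 to 0.158 for Hoxb4, −0.0886 to 0.578 for Hoxb9, −0.305 to 0.155 for Hoxc4, −0.628 to 0.219 for Hoxc5 and −0.885 to 0.0965 for Hoxd3.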
